A study of Mus musculus with 5 samples.

Results

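Dad1 (defender against cell death 1) is a small membrane subunit of oligosaccharyltransferase, the complex of the endoplasmic reticulum that transfers a preassembled glycan onto asparagine residues of new proteins. In the mouse genome it is the neighbour of the constant gene of the T cell receptor α chain, Trac. The α joining segments lie before Trac, and the enhancer that drives the α locus, Eα, lies between Trac and Dad1. Double-positive (DP) thymocytes, the developing T cells named for having CD4 together with CD8, rearrange and transcribe this locus. Cxxc1, a CXXC zinc finger protein, recognises CpG without methylation and is a subunit of the Setd1 enzyme complexes that trimethylate lysine 4 of histone H3 (H3K4me3), a mark found mostly at promoters.

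All listed 200-bp windows within 150 kb of either end of Dad1 were taken, which gave 32 of the 137757 windows in the 3 lists examined: 8 from the Cxxc1 list, 17 from wild-type (WT) H3K4me3 and 7 from Cxxc1-deficient H3K4me3. Peaks were built by bridging gaps of up to 2 windows, so the region held 2 Cxxc1 peaks, 2 WT H3K4me3 peaks and 1 Cxxc1-deficient H3K4me3 peak. The whole lists held 4352, 14237 and 2979 peaks. Positions are on mouse assembly mm9.

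The study asked where Cxxc1 sits in DP thymocytes and how H3K4me3 differs without it, by chromatin immunoprecipitation with sequencing (ChIP-seq). WT mice were Cxxc1 fl/fl, and Cxxc1-deficient mice were Cxxc1 fl/fl with the hCD2Cre transgene, which acts from early thymocytes on and also in other immune cells. Both were on a C57BL/6 background and 3 to 4 weeks old, the age the methods give unless specified. The floxed line was made in embryonic stem cells of another strain and then backcrossed to C57BL/6. The sample titles name the deficient libraries as knockouts, whereas their genotype label names a heterozygote (Cxxc1+/-), and the titles were followed. The Cxxc1 list carries no genotype and was assigned to WT from the methods. Each list came from 1 library, so no difference has a replicate check and no p-value is given. A smaller share of cells carrying a mark and less of it per cell cannot be told apart.

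Values are in RPM, tags per 1000000 mapped tags. The decimals that occur among the values placed the libraries at 9.091 to 9.462 M tags, where 1 tag was worth about 0.11 RPM. The weakest listed peak of each list summed to 1.1 RPM, or 10 tags. A place with no listed window has an unknown value, not a value of 0. RPM at a gene counts the windows in reach of its promoter alone, so it can be below that of the whole peak. In WT, 6 of 12 DP thymocyte marker genes had an H3K4me3 peak no farther than 1 kb from a transcription start site (TSS), among them Cd8a at 2.7 RPM and Lck at 4.5 RPM, whereas Cd4, Cd3d, Cd3g, Rag1, Rag2 and Dntt had none. The share over all protein-coding genes was 31.1%. In Cxxc1-deficient cells 3 of 12 had one, Cd8a at 1.5 RPM, Cd3e at 1.9 RPM and Rag1 at 0.7 RPM, beside 5.86% of all protein-coding genes. Among markers of other cells, to be read beside the same shares, WT listed Cd79b of 5 B cell genes at 0.4 RPM and Klf1 of 3 erythroid genes at 0.9 RPM, Cxxc1-deficient cells listed Epor at 1.9 RPM, and neither listed any of 4 myeloid or 4 thymic epithelial genes. The part of other cells in the values below was not tested.

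The H3K4me3 windows of both genotypes fell in 1 stretch, the 12.4 kb between the end of Trac (chr14:54840196-54842772) and the 3′ end of Dad1 (ENSMUSG00000022174.8, chr14:54855154-54873779, minus strand). WT carried 4.4 RPM in a 3000-bp peak just past Trac and 1.6 RPM in an 800-bp peak nearer Dad1. Cxxc1-deficient cells carried 2.3 RPM in a 1400-bp peak between them. No list held a window in Trac itself or over the 59 annotated α joining segments, which span 63.8 kb. The Dad1 promoter had no listed window in any of the 3 lists.

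**Figure D1:**
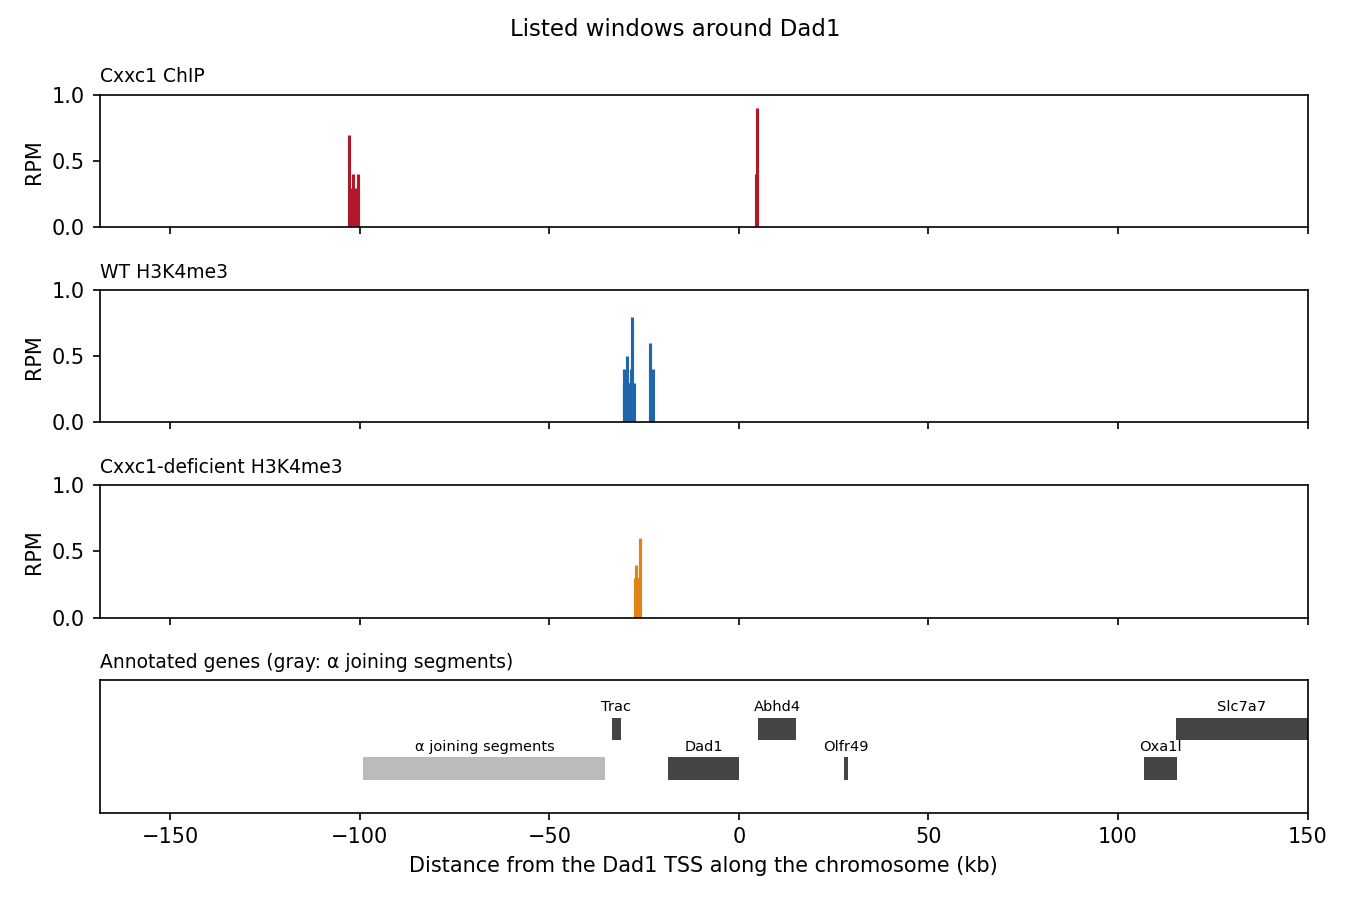
RPM of each listed window (vertical axis) against distance from the Dad1 TSS along the chromosome in kb, negative toward Trac, in 1 panel for each list, with the annotated genes below. The 2 H3K4me3 panels have bars only between Trac and Dad1, and the Cxxc1 panel has bars before the α joining segments and beside Abhd4.

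Sequences within the peaks and before the Dad1 TSS were read from the mm9 genome. They are on the plus strand except for the Dad1 promoter, which is on the minus strand as Dad1 is. The first 300 bases, chr14:54847101-54847400, lie in the Cxxc1-deficient peak and hold letters of 3 transcription factor motifs, which are in capitals. They are followed by the strongest window of the larger WT peak (chr14:54845601-54845800), of the Cxxc1 peak before the joining segments (chr14:54771001-54771200) and of the Cxxc1 peak beside Abhd4 (chr14:54878601-54878800), and by the 250 bases before the Dad1 TSS (chr14:54873780-54874029). In these 4 the capitals mark CG, the dinucleotide that Cxxc1 binds when it is unmethylated.

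Cxxc1-deficient peak, motif cluster: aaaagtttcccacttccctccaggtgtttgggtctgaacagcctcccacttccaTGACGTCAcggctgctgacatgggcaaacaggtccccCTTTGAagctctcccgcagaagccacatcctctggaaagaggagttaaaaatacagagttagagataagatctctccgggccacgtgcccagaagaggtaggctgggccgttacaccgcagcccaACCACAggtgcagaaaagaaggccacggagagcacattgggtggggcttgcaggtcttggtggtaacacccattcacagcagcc
WT peak past Trac, strongest window: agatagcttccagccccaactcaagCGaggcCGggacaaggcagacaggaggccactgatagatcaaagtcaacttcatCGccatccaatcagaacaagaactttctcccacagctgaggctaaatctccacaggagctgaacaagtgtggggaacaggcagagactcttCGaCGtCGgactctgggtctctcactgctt
Cxxc1 peak before the joining segments, strongest window: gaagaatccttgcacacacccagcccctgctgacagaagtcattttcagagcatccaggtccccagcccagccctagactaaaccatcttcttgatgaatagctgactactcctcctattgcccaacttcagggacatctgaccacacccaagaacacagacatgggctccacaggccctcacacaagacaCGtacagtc
Cxxc1 peak beside Abhd4, strongest window: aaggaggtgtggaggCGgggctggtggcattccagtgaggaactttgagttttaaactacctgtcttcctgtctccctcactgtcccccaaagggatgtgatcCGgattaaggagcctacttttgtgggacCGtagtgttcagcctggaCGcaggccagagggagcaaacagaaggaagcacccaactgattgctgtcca
Dad1, bases before the TSS: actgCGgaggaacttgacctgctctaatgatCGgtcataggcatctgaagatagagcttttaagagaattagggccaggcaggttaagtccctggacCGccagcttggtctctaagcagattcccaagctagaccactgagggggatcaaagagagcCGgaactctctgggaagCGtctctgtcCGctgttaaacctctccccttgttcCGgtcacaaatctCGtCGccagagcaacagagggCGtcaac

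The larger WT peak (chr14:54843401-54846400) began 628 bp and ended 3627 bp past the end of Trac. It summed to 44 tags, with a 95% Poisson interval of 32.0 to 59.1 that covers counting error only, as do all intervals given here. It was spread over 13 of 15 window positions at 0.4, 0.3, 0.2, 0.3, 0.5, 0.2, 0.3, 0.3, 0.2, 0.4, 0.8, 0.2 and 0.3 RPM, with 1 position missing after the fourth value and 1 before the last. The highest window, at 0.8 RPM or 8 tags, lay at chr14:54845601-54845800, toward the Dad1 side of the peak.

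In its list this peak ranked 926 of 14237 by summed RPM, and 93.5% of WT peaks were at or below its strength and 93.9% at or below its width. Its midpoint was 28.69 kb from the nearest protein-coding TSS, that of Dad1. WT peaks more than 5 kb from any protein-coding TSS numbered 6486, with a median of 2.1 RPM and a median width of 1600 bp. Of these, 95.5% were weaker and 92.9% narrower than the peak past Trac, and 289 were at least as strong. The peak was therefore in the upper range of its list in summed RPM and in width. A sum over windows rises with width, so these are not separate traits. Its mean was 0.338 RPM per window, beside 0.4 in the smaller WT peak.

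The smaller WT peak (chr14:54850401-54851200) lay 7628 to 8427 bp past Trac and ended 3953 bp before the 3′ end of Dad1. Its 4 windows held 0.6, 0.3, 0.3 and 0.4 RPM, in all 1.6 RPM or 16 tags (9.15 to 26.0). It ranked 12460 of 14237, with 12.5% of WT peaks at or below it. Of the 2 WT peaks, this one was near the weak end of the list.

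The Cxxc1-deficient peak (chr14:54846401-54847800) lay 3628 to 5027 bp past Trac and ended 7353 bp before the 3′ end of Dad1. Its 7 consecutive windows held 0.3, 0.4, 0.3, 0.2, 0.2, 0.3 and 0.6 RPM, in all 2.3 RPM or 23 tags (14.6 to 34.5). It ranked 781 of 2979, with 73.8% of the list at or below its strength and 47.1% at or below its width. The lowest values, of 2 tags, were in its middle and the highest, of 6 tags, in the last window, on the Dad1 side. Counts this small give no shape for the peak.

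The first window of the Cxxc1-deficient peak was the next one after the last window of the larger WT peak. The peaks thus touched with 0 bp between them, shared 0 windows, and covered 4400 bp (chr14:54843401-54847800) without overlap. Of the 14237 WT peaks, 31 (0.218%) touched a Cxxc1-deficient peak in this way. The contact was noticed in these same data, so this share is a description and not a test. It also rests on 1 WT edge window of 3 tags. None of the 2 WT peaks of the region overlapped a Cxxc1-deficient peak, beside 8.17% of the whole WT list (1163 peaks). The single Cxxc1-deficient peak did not overlap a WT peak, beside 38.7% of the whole Cxxc1-deficient list that did. With shares of this size, 0 of 2 and 0 of 1 give no result about the region. Since neither genotype lists a value where the other has its peak, the tags of 1 genotype in the windows of the other are unknown, and no ratio between genotypes was taken. With peaks within 1 kb of each other counted as shared, 1 of the 2 WT peaks had a Cxxc1-deficient partner. The share of the whole WT list under that wider rule is not given here, and 8.17% holds for overlap alone. This 1 of 2 therefore gives no result about the region either.

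**Figure D2:**
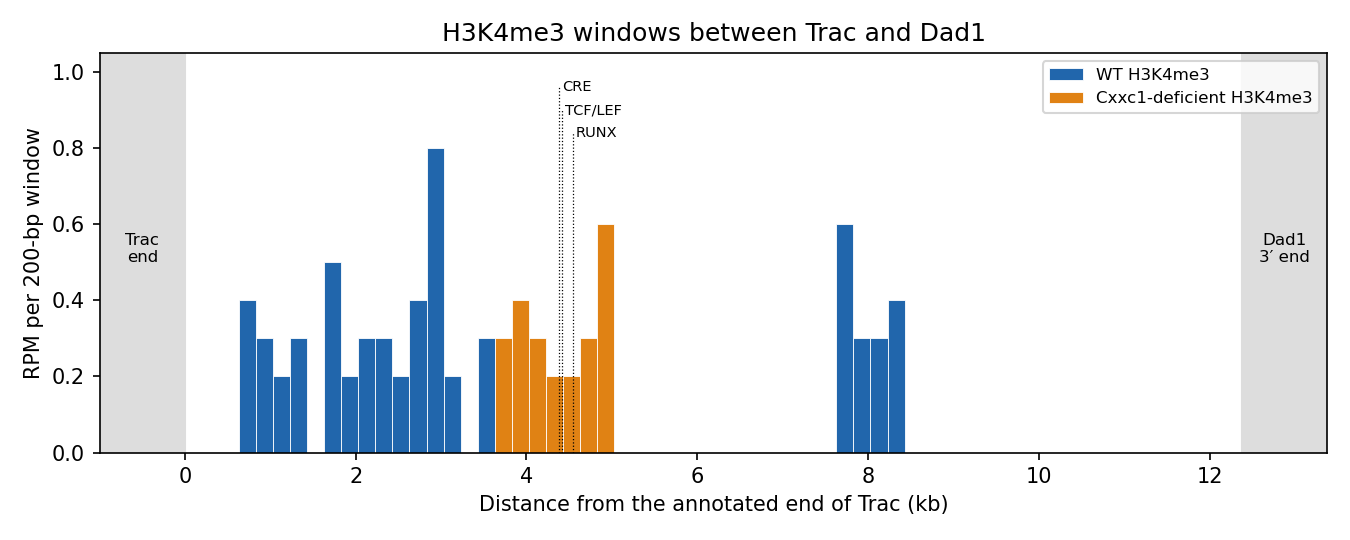
RPM per 200-bp window (vertical axis) against distance in kb from the annotated end of Trac, with WT in blue, Cxxc1-deficient in orange, gray for the ends of Trac and Dad1, and dotted lines at the 3 motif matches. The orange bars start where the first group of blue bars ends, and the second WT peak stands 2600 bp beyond the orange bars.

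A set of 3 motifs was searched on both strands: TGACGTCA (the cyclic AMP response element, CRE), CTTTGA (TCF/LEF) and TGTGGT (RUNX). The 3 were picked for this report and not by a search over all motifs. Finding them together is therefore a description and not a test. The Cxxc1-deficient peak held a CRE match at chr14:54847155-54847162, a TCF/LEF match whose start was 37 bp later and a RUNX match, on the minus strand, whose start was 162 bp after that of the CRE. None of the 3 overlapped another. The CRE was 4.38 kb past Trac, 8.0 kb before the 3′ end of Dad1, 755 bp past the end of the larger WT peak and in a window of 0.2 RPM, or 2 tags, in Cxxc1-deficient cells. The annotation used marks no enhancers, so neither the motifs nor the peaks were assigned to Eα.

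The 8 letters of the CRE occurred 3 times in the 318.6 kb of the region. Of the listed windows, 0.433% in WT, 0.446% in Cxxc1-deficient cells and 0.165% in the Cxxc1 list held a CRE. A CRE and a TCF/LEF match shared a window in 9 of 18403 Cxxc1-deficient windows (0.0489%) and in 0.0393% of WT windows. In the region, 2 of 1594 windows (0.125%) held both. Those 2 include the pair picked out above, so this share is a description and not a test. The shorter motifs were common. RUNX was in 14.6% and TCF/LEF in 14.4% of the windows of the region, and the larger WT peak held 1 RUNX and 2 TCF/LEF matches. A match describes letters and not binding.

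The first Cxxc1 peak (chr14:54771001-54773400) lay between the Trdv5 segment, which ended 2125 bp before it, and the first annotated α joining segment (Gm17363), which began 1280 bp after it. It was 2400 bp wide, yet only 6 of its 12 window positions were listed, at 0.7, 0.3, 0.4, 0.2, 0.3 and 0.4 RPM. The sum was 2.3 RPM or 22 tags (13.8 to 33.3), rank 597 of 4352. At 86.3% of the list at or below its strength and 97.0% at or below its width, it was broad and thinly filled. It held 18 CpG, or 0.75 per 100 bp.

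The second Cxxc1 peak (chr14:54878401-54878800) was short, with windows of 0.4 and 0.9 RPM, in all 1.3 RPM or 12 tags (6.2 to 21.0), rank 4125 of 4352. It lay 506 to 107 bp upstream of the TSS of Abhd4 (ENSMUSG00000040997.6, chr14:54878907-54888829, plus strand), a lipase gene of N-acyl phospholipid metabolism. Abhd4 and Dad1 are head to head, with 5.13 kb between their TSSs, and the peak was 4.62 kb from the Dad1 TSS. It held 9 CpG, or 2.25 per 100 bp, against 0.75 in the first Cxxc1 peak.

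None of the 2 Cxxc1 peaks overlapped an H3K4me3 peak of either genotype, beside 6.94% of all Cxxc1 peaks that did, so 0 of 2 is no departure from the list. The first was 70.0 kb from the larger WT H3K4me3 peak and the second 27.2 kb from the smaller one. Of 438 genes with a Cxxc1 promoter peak, 48.2% also had an H3K4me3 promoter peak in either genotype, and Abhd4 was among those with none.

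The 5 protein-coding genes of the region were Dad1, Abhd4, the olfactory receptor gene Olfr49, Oxa1l, whose product inserts proteins into the inner mitochondrial membrane, and Slc7a7, a transporter of basic amino acids whose TSSs lie beyond the region. None had an H3K4me3 promoter peak in WT or in Cxxc1-deficient cells, beside 31.1% and 5.86% of the 22372 protein-coding genes. For Cxxc1 only Abhd4 did, beside 1.96% of all genes. The nearest WT peak was 22.58 kb from the TSS of Dad1, 27.71 kb from that of Abhd4 and 16.55 kb from that of Slc7a7, which lies beyond the edge of the region. The same lack of listed promoter windows in all 3 lists was shared by 14763 genes (66.0%), so no gene could be named as most like Dad1.

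Promoters rich in CpG are listed more often for H3K4me3, and Dad1 is fairly rich. The 1000 bp around its TSS held 54 CpG, an observed to expected ratio of 0.756 and 53.4% GC, which put it in class 7 of 10 when all protein-coding genes were ordered by CpG number. In that class 1081 of 2237 genes (48.3%) had a WT promoter peak, and the share went from 1.25% in the lowest class to 61.5% in the highest. Dad1 was among the genes of its class without one. Abhd4 had 42 CpG, Oxa1l 51, Slc7a7 20 and Olfr49 8. The 250 bases printed for Dad1 held 10 CpG, more than in 52.6% of genes, and 1 TCF/LEF match, which 13.3% of such promoters hold.

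**Figure D3:**
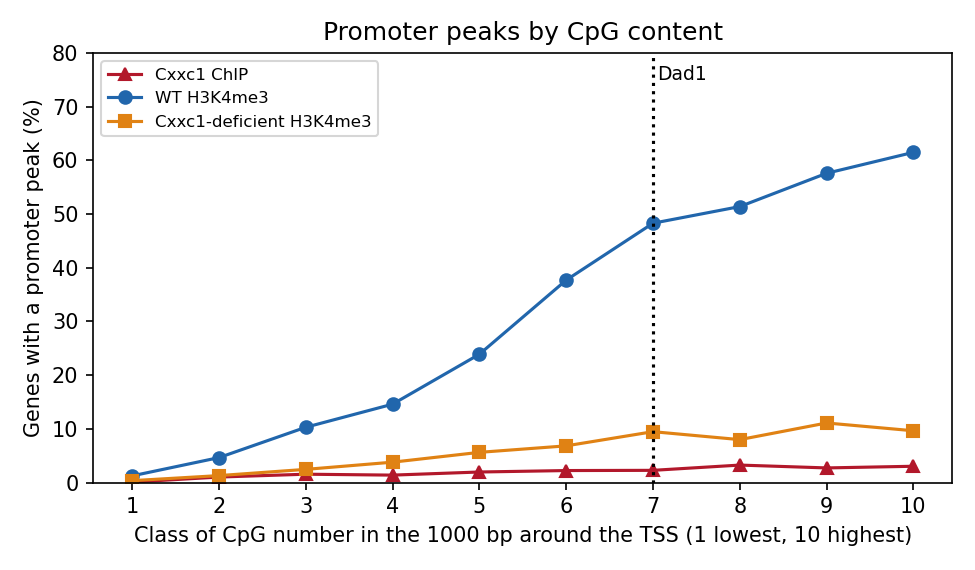
Share of protein-coding genes with a promoter peak in percent (vertical axis) for each of 10 classes of CpG number in the 1000 bp around the TSS, with a dotted line at the class of Dad1. The WT share goes up across the classes to 61.5%, and Dad1 belongs to the class at 48.3% and is itself without a peak.

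The larger WT peak held 50 CpG (1.67 per 100 bp), the smaller 25 (3.12) and the Cxxc1-deficient peak 25 (1.79). In the 150 kb either side of a protein-coding gene the median was 3 WT peaks and 16 WT windows, so the 2 peaks and 17 windows around Dad1 were ordinary in number. The median was 0 Cxxc1-deficient peaks, and 44.2% of genes had at least 1. For Cxxc1 the median was 1 peak, and 21.3% of genes had 2 or more. Toward the joining segments the next WT peak beyond the region was 1769.0 kb away, whereas on the other side it was 25.6 kb away, at the promoter of Mmp14, at 2.8 RPM.

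Most other subunit genes of oligosaccharyltransferase were listed in WT. Of 12 subunit genes, 10 had a WT promoter peak, beside 31.1% of all protein-coding genes, and Dad1 and Magt1 were the 2 without. The 31.1% takes no account of CpG number, across whose classes the WT share went from 1.25% to 61.5%. The CpG classes of the other subunit genes are not given here. The catalytic subunits Stt3a and Stt3b had 2.3 and 4.7 RPM. Among the accessory subunits Ddost and Krtcap2 had 3.0 RPM each, Rpn1 2.4, Tmem258 2.3, Rpn2 2.2, Ost4 1.9 and Ostc 1.4 RPM. The oxidoreductase subunit Tusc3 had 2.2 RPM, whereas its paralogue Magt1 had no listed window. In Cxxc1-deficient cells 0 of 12 had a promoter peak, beside 5.86% of all genes, and for Cxxc1 0 of 12, beside 1.96%. Within 5 kb of a TSS, Dad1 counted as 1 subunit gene with a Cxxc1 peak, through the peak beside Abhd4.

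Of 19 genes that assemble the N-glycan precursor or trim it and fold its carriers, a promoter peak was listed at 9 in WT, at 3 in Cxxc1-deficient cells and at 0 for Cxxc1, beside 31.1%, 5.86% and 1.96% of all genes. Alg5, which makes the glucose donor of the precursor, was the 1 gene with both, with 4.1 RPM in the WT list and 2.1 RPM in the other. Mogs, the glucosidase that removes the first glucose, and Uggt1, which puts a glucose back on misfolded glycoproteins, were listed in Cxxc1-deficient cells alone, at 1.7 and 1.5 RPM. The lectin chaperones Canx and Calr had 1.8 and 2.9 RPM in WT and no listed window in Cxxc1-deficient cells.

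**Figure D4:**
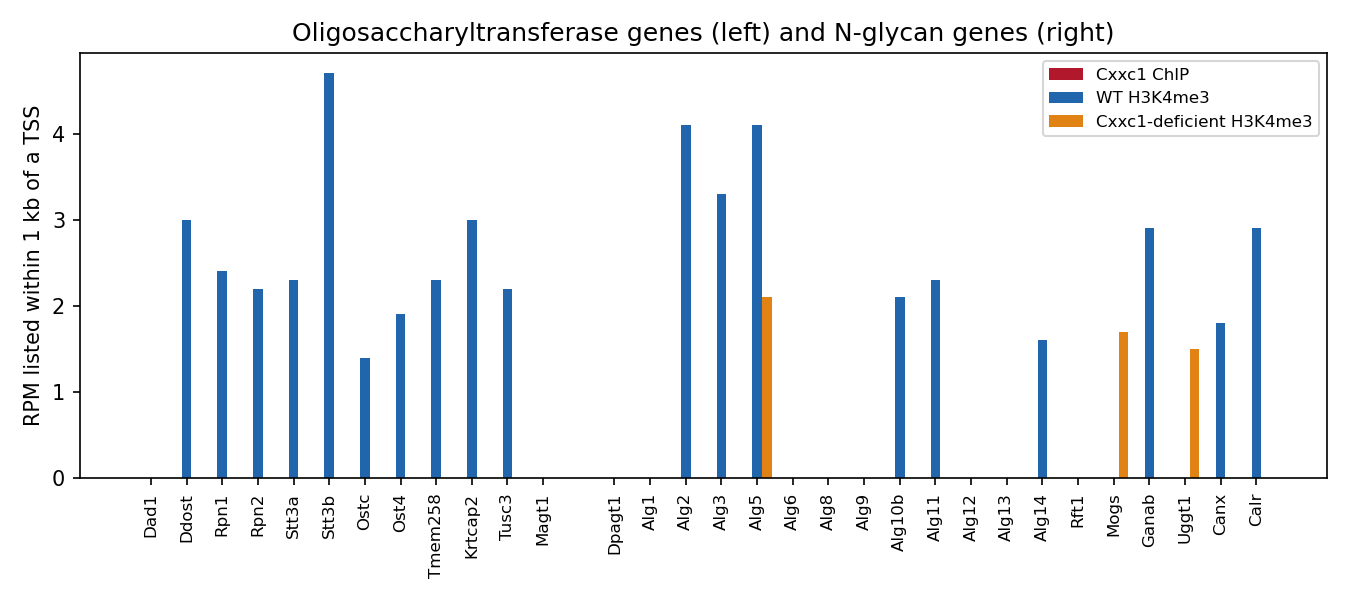
RPM listed within 1 kb of a TSS (vertical axis) for 12 oligosaccharyltransferase genes on the left and 19 N-glycan genes on the right, with no bar where no window is listed. WT bars stand at 10 subunit genes and 9 N-glycan genes, Cxxc1-deficient bars at Alg5, Mogs and Uggt1, and no gene has a Cxxc1 bar.

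Other antigen receptor constant genes were examined within 10 kb of the gene. Trbc1 and Trbc2, the constant genes of the T cell receptor β chain, shared 1 WT peak of 1.8 RPM (chr6:41493401-41494400). They shared 1 Cxxc1-deficient peak of 2.4 RPM (chr6:41496801-41498600), and Trbc2 had 2 more, of 1.6 and 2.0 RPM. No WT and Cxxc1-deficient peak overlapped there. In the whole lists 8.17% of WT and 38.7% of Cxxc1-deficient peaks overlap one of the other genotype. So few peaks give no result about these genes. At Ighm, the constant gene of the immunoglobulin μ heavy chain, the WT peak of 4.1 RPM (chr12:114660601-114663600) overlapped 1 of the 2 Cxxc1-deficient peaks (chr12:114660001-114661800, 2.6 RPM), and a Cxxc1 peak of 1.4 RPM lay nearby. Igkc, Iglc2 and Iglc3, constant genes of the light chains, had no peak in any list. Among the constant genes matched, Trac was the 1 whose WT sum within 10 kb, 4.4 and 1.6 RPM, came from 2 peaks. Trdc, Tcrg-C1, Tcrg-C2, Tcrg-C4 and Iglc1 had no match by symbol and were not examined. With so few loci, this gives no result about Trac.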

How the data were processed

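H3K4me3 and Cxxc1 ChIP-seq covered 5 libraries, of which 3 lists were used. The Cxxc1-deficient Cxxc1 ChIP and the WT input were not analysed here. Per the study's methods, SICER was run on 50-bp reads with a unique place in mm9, and the submitters' processing notes name SICER 1.1 and CASAVA 1.8.2. The methods name the input and the Cxxc1-deficient ChIP as controls for peak calling, without saying how each was used for the H3K4me3 lists. The aligner and the treatment of duplicates are not given in the sources used here. These choices could alter the set of listed places. The authors deposited the 200-bp windows of called regions with a value in RPM at 1 decimal.

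Peak RPM is the sum over its windows. The RPM of 1 tag was inferred from the decimals that occur, and tags carry exact Poisson intervals. Overlap meant at least 1 bp, and a promoter lay within 1 kb of a GENCODE vM1 TSS. Python 3.11.15, numpy 2.4.6, pandas 2.3.3 and scipy 1.17.1 were used, and the functions were tested on simulated data. Groups came from the titles. Genes named were those of the region, Dad1's complex, N-glycan genes, constant genes and cell markers, of which Ptcra, Trdc, Tcrg-C1, Tcrg-C2, Tcrg-C4 and Iglc1 had no match by symbol. The members and lists were chosen with earlier results of these data known. No tests between groups were run.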

Additional observations from a re-analysis of the deposited data

How the results depend on the processing

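Over 35 alternatives for 12 results, 26 left the value within its limits and 9 moved it. With no missing window joined, the region held 4 WT peaks and 6 Cxxc1 peaks. With 200 kb either side it held 4 WT peaks. In the stronger 50% of each list, 1 WT and 1 Cxxc1 peak were left. The Cxxc1-deficient count was 1 under all 5 alternatives run for it. The number of WT peaks with a Cxxc1-deficient partner was 1 within 1 kb, for which no share of the whole list is given. It was also 1 when 0 bp between peaks counted, an alternative chosen after seeing the data. With a promoter within 5 kb, Dad1 had 1.3 RPM of Cxxc1 and 1 oligosaccharyltransferase gene had a Cxxc1 peak. These follow from how peaks are joined and how far is counted. No paired analysis was possible because each list came from 1 library. At 12 to 44 tags a peak, counting error is wide, and places below the calling threshold have no value.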
